A study of Mus musculus with 3 samples.

Results

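Ncr1, Klrb1a, Klrb1b, Klrb1c, Klrb1f and Clec2d encode the natural cytotoxicity receptor NKp46, 4 receptors of the NKR-P1 family and the lectin Clr-b, a ligand of that family. They were chosen by name, as 6 of the 25906 genes listed in the files, and all 6 were found. Their transcripts were read in single natural killer (NK) cells of lung and blood from wild-type female mice of 9 weeks. One droplet library came from untreated (naive) mice, one from mice killed 6 h and one from mice killed 14 days after intravenous injection of 100000 PyMT cells, a mouse mammary tumor line that seeds the lung. Live NK1.1+NKp46+ cells of both tissues, without the lineage markers named in the methods, had been sorted, marked with hashtag antibodies (B0304 read as lung and B0306 as blood, since tissues and tags are named in that order) and pooled in 1 library per time. The sort uses the proteins of Klrb1c (NK1.1) and Ncr1 (NKp46), so the gate itself selects cells for these 2 members. The labels do not tie cells to single mice.

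NK cells weigh activating against inhibitory receptor signals before they kill. NKp46 is an activating receptor that signals through the adaptors CD3 zeta and Fc receptor gamma. The NKR-P1 receptors are C-type lectin-like proteins encoded beside their CLEC2 ligands in the NK gene complex. NK1.1 is activating, whereas NKR-P1B, the product of Klrb1b, is inhibitory and recognizes Clr-b, which most blood cells display and many tumor cells lose. Clr-b on a target cell is thereby read as a sign of self.

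The 5 NKR-P1 and CLEC2 members lay on chromosome 6 within 577 kb (GENCODE M21, GRCm38). On the minus strand were Klrb1a (ENSMUSG00000030361, 128609227 to 128623533), Klrb1c (ENSMUSG00000030325, 128778485 to 128789215) and Klrb1b (ENSMUSG00000079298, 128813706 to 128826331). On the plus strand were Klrb1f (ENSMUSG00000030154, 129045901 to 129057464) and Clec2d (ENSMUSG00000030157, 129180615 to 129186534). Ncr1 (ENSMUSG00000062524) lay apart on the plus strand of chromosome 7, from 4337724 to 4345164. All were annotated as protein coding.

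The start regions of these genes are shown because related receptors differed in how they were distributed between lung and blood. Each sequence is RefSeq's (GRCm38.p6), from 250 bases before to 50 bases after the listed start, read 5′ to 3′ on the strand of the gene, at chr7:4337465-4337764, plus strand, for Ncr1; chr6:128788592-128788891, minus strand, for Klrb1c; chr6:128622885-128623184, minus strand, for Klrb1a; chr6:128826266-128826565, minus strand, for Klrb1b; and chr6:129045651-129045950, plus strand, for Klrb1f. The RefSeq starts of Klrb1a, Klrb1c and Klrb1b lie inside the GENCODE genes. Ncr1 and Klrb1b have 2 listed starts each, and only the first was read for letters. Capitals mark TGTGGT, letters known for RUNX factors, on either strand. In the last sequence they mark letters known for GATA factors, which are AGATAA.
Ncr1: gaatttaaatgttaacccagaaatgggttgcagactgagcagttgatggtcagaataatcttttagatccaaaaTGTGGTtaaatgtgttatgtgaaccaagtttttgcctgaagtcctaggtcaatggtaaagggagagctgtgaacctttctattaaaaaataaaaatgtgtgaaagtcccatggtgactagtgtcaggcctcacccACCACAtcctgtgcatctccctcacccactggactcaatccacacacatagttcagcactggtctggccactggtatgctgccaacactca
Klrb1c: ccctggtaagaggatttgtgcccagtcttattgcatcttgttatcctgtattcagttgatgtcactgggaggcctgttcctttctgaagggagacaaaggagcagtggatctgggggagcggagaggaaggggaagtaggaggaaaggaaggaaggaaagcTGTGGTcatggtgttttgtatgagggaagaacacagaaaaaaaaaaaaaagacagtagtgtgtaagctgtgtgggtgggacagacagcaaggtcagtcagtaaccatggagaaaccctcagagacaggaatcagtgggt
Klrb1a: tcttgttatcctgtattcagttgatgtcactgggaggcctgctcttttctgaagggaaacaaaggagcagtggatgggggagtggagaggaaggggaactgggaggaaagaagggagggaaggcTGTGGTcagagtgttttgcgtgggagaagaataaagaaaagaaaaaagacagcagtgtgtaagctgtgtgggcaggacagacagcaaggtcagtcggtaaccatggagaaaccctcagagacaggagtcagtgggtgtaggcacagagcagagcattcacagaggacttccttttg
Klrb1b: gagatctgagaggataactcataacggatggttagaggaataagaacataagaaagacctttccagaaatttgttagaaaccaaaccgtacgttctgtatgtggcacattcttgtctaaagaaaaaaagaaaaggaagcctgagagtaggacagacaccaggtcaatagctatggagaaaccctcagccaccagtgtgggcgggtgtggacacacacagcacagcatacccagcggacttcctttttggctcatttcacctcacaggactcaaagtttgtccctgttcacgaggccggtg
Klrb1f: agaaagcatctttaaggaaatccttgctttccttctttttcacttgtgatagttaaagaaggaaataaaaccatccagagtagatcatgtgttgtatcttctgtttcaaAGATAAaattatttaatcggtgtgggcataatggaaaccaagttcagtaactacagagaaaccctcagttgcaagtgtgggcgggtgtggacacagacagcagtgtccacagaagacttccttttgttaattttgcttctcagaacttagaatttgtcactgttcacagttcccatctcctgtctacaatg
The RUNX letters stood in 3 of the 6 members, at 176 and 41 bases before the start of Ncr1, 126 before that of Klrb1a and 89 before that of Klrb1c, and 16.9% of all 27025 start regions held them. The GATA letters stood in Klrb1f alone among the members, 141 bases before its start, against 11.4% of all regions. GGTGTGA (T-box factors, 3.96% of regions) and CCGGAA (ETS factors, 15.2%) were found in none of the 6. Klrb1a and Klrb1c shared 69.4% of aligned bases, and Klrb1b and Klrb1f shared 58.3%, while the other pairs shared 43.7% to 50.8%. These matches describe letters and not bound sites.

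Between 2069 and 4680 cells entered each of the 6 groups, with 16936897 to 35922737 unique molecular identifiers (UMIs, 1 per captured molecule) and a median of 5910 to 7524 UMIs per cell. Levels are in CPM, a gene's summed UMIs in a group scaled to 1000000 UMIs of all genes, and intervals cover counting error only. Eomes, Tbx21, Gzma, Prf1, Nkg7 and Klrd1 stood at 191 CPM or more in every group, as the label NK cell asks. So did Ncr1 and Klrb1c, whose proteins the sort used. These 8 genes summed to 15596 CPM in 14-day lung and to 19052.5 to 22982.5 CPM in the other groups. Of other cell types, the T cell list summed to 32.9 to 59.2 CPM and the epithelial and endothelial list to at most 4.29 CPM. Cd4 and Cd8b1 were at 0 in 3 groups. Most of the B cell and myeloid sums, 35.9 to 56.3 and 110.1 to 204 CPM, was Ighm and Cst3. The ILC1 list, of an NK-like resident cell, summed to 51.7 to 62.0 CPM in the 4 naive and 6 h groups, 116 CPM in 14-day blood and 176 CPM in 14-day lung. From naive to 14 days, its gene Itga1, also used to divide cells below, went from 14.5 to 70.8 CPM in lung and 16.5 to 31.5 CPM in blood. Tmem176b went from 2.73 to 14.8 CPM in lung and 3.37 to 10.4 CPM in blood. Cxcr6 went from 3.45 to 4.72 CPM in lung and 2.57 to 15.3 CPM in blood. The part of this list in the 14-day results below was not tested. The erythroid list was at 82.2 CPM in 14-day lung, where 1 cell held 10 or more hemoglobin UMIs, and at most 0.334 CPM elsewhere. Each time point is 1 library, so time and library cannot be told apart, and each pair of libraries shared 7 to 16 kept barcodes.

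Ncr1 was lower in lung than in blood at every time, and lowest in lung at 14 days. Its lung level was 896 CPM (95% CI 884 to 909) in naive mice, 920.1 CPM (95% CI 910.2 to 930.03) at 6 h and 665 CPM (95% CI 656 to 675) at 14 days. The blood levels were 1533 CPM (95% CI 1519 to 1547), 1526 CPM (95% CI 1509 to 1542) and 1384 CPM (95% CI 1367 to 1402). Every blood group thus stood above every lung group, and only naive and 6 h blood had overlapping intervals. The log2 ratio of lung over blood was -0.77 (95% CI -0.80 to -0.75) in naive mice, -0.73 (95% CI -0.75 to -0.71) at 6 h and -1.06 (95% CI -1.09 to -1.03) at 14 days, a level in blood 1.71, 1.66 and 2.08 times that in lung. At 14 days only 0.370% of genes had a lower ratio.

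Klrb1c, which encodes NK1.1, varied least of the 6, by 1.25-fold between its lowest and its highest group. Its level was 1071, 1076 and 1052 CPM in naive, 6 h and 14-day lung, and 1292, 1278 and 1319 CPM in the matching blood. Lung stood below blood each time, by a log2 ratio between -0.25 and -0.33. Within each tissue, groups next to each other in order of level had overlapping intervals, while those of 6 h and 14 days did not overlap.

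Klrb1a encodes NKR-P1A. Its level was 196, 198 and 247 CPM in naive, 6 h and 14-day lung, and 267, 249 and 315 CPM in blood. The log2 ratio of lung over blood was -0.45, -0.33 and -0.35, short of 1.5-fold at each time. Both tissues had their highest level at 14 days.

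Klrb1f encodes NKR-P1F, a receptor that binds the CLEC2 protein Clr-g. Its level was 146, 164 and 201 CPM in naive, 6 h and 14-day lung, and 244, 246 and 204 CPM in blood. The log2 ratio of lung over blood was -0.74 (95% CI -0.79 to -0.68), -0.58 (95% CI -0.63 to -0.53) and -0.02 (95% CI -0.08 to 0.04). At 6 h the level in blood was 1.496 times that in lung, just short of the threshold used here. The gap between the tissues seen in naive mice was thus not detectable at 14 days.

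Klrb1b, the inhibitory receptor, was the only member with more transcript in lung. Its level was 423 CPM (95% CI 415 to 432), 365 CPM (95% CI 359 to 371) and 402 CPM (95% CI 395 to 409.8) in naive, 6 h and 14-day lung. The matching blood levels were 197 CPM (95% CI 192 to 202), 159 CPM (95% CI 154 to 164) and 212 CPM (95% CI 206 to 220). No 2 neighbouring groups in its order had overlapping intervals, and the 3 lung groups were the 3 highest. The log2 ratio of lung over blood was 1.11 (95% CI 1.06 to 1.15), 1.20 (95% CI 1.14 to 1.25) and 0.92 (95% CI 0.87 to 0.98), higher than in 97.2%, 97.6% and 96.8% of genes.

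Clec2d, the gene of the ligand Clr-b, was itself transcribed in these NK cells. Its level was 173 CPM (95% CI 168 to 178), 213 CPM (95% CI 209 to 218) and 328 CPM (95% CI 322 to 335) in naive, 6 h and 14-day lung, and 305, 349 and 338 CPM in blood. The log2 ratio of lung over blood was -0.82 and -0.71 in the naive and 6 h libraries and -0.04 (95% CI -0.09 to 0.004) at 14 days. As with Klrb1f, 14-day lung had come level with blood within counting error.

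**Figure D1:**
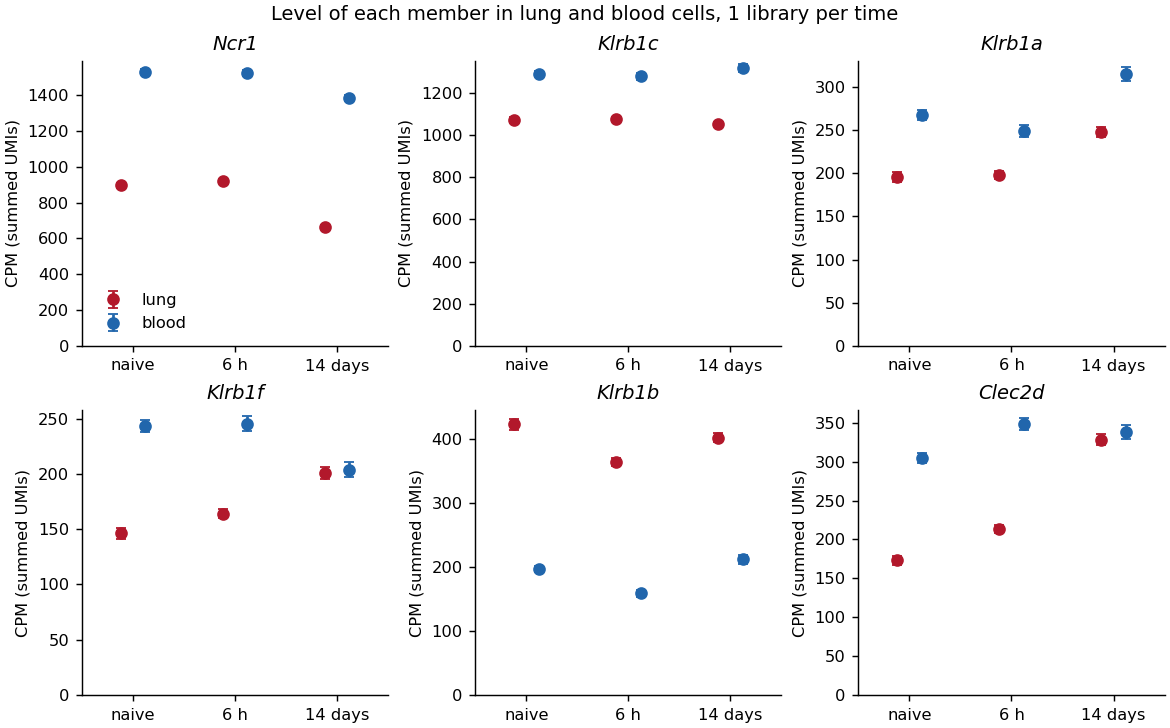
Levels (CPM) of the 6 members in lung (red) and blood (blue) cells of the naive, 6 h and 14-day libraries, 1 point per group, with exact Poisson intervals (95%) as bars and axes from 0. Blood stands above lung in all 3 libraries for Ncr1, Klrb1c and Klrb1a, lung stands above blood for Klrb1b, and the tissues meet at 14 days for Klrb1f and Clec2d.

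A difference of 1.5-fold or more was counted as past the fold. Of genes reaching 10 CPM on either side of a comparison, 6.5% were higher and 3.95% lower in naive lung than in naive blood. Of the members, Klrb1b was higher and Ncr1, Klrb1f and Clec2d were lower, with a median log2 ratio of -0.59 over the 6. At 6 h 6.11% of genes were higher and 3.4% lower in lung, and Klrb1b was higher while Ncr1 and Clec2d were lower. At 14 days the shares were 5.75% and 3.96%, and only Klrb1b (higher) and Ncr1 (lower) remained among the members. The median gene had a log2 ratio of -0.09 to -0.11 in these comparisons, and taken relative to it the same 4, 3 and 2 members were counted.

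Whether the tissue difference repeated over the 3 libraries was tested with edgeR's quasi-likelihood test on the summed counts, with the library as a block, a test added after the data had been seen. Of 8424 genes, 14.1% were called higher (1187) and 9.07% lower (764) in lung at an adjusted p under 0.05, and with no normalization beyond totals 926 were higher and 1986 lower. Klrb1b had a log2 fold of 1.17 ± 0.065 (SE; edgeR adjusted p = 0.0013; higher in 3 of 3 libraries), Ncr1 -0.76 ± 0.082 (edgeR adjusted p = 0.0064; lower in 3 of 3) and Klrb1a -0.29 ± 0.058 (edgeR adjusted p = 0.029; lower in 3 of 3). Each SE was worked back from the log2 fold and the test statistic, and is no separate measure of spread over libraries. Klrb1c at -0.19, Klrb1f at -0.36 and Clec2d at -0.43 did not pass (edgeR adjusted p = 0.084, 0.17 and 0.14), although lung was lower in 3 of 3 libraries. With no normalization Klrb1c passed too. Without the naive or without the 6 h library only Klrb1b passed, and without the 14-day library all 6 did, together with 2227 genes higher and 2500 lower. That last fit, on the naive and 6 h libraries alone, gave Klrb1b an edgeR p of 9.1e-250. So few libraries cannot bear such a value, and its calls were not read as repetition over libraries. The libraries are 3 different conditions, so their spread holds the effect of time, and tissue cannot be told apart from its preparation.

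**Figure D2:**
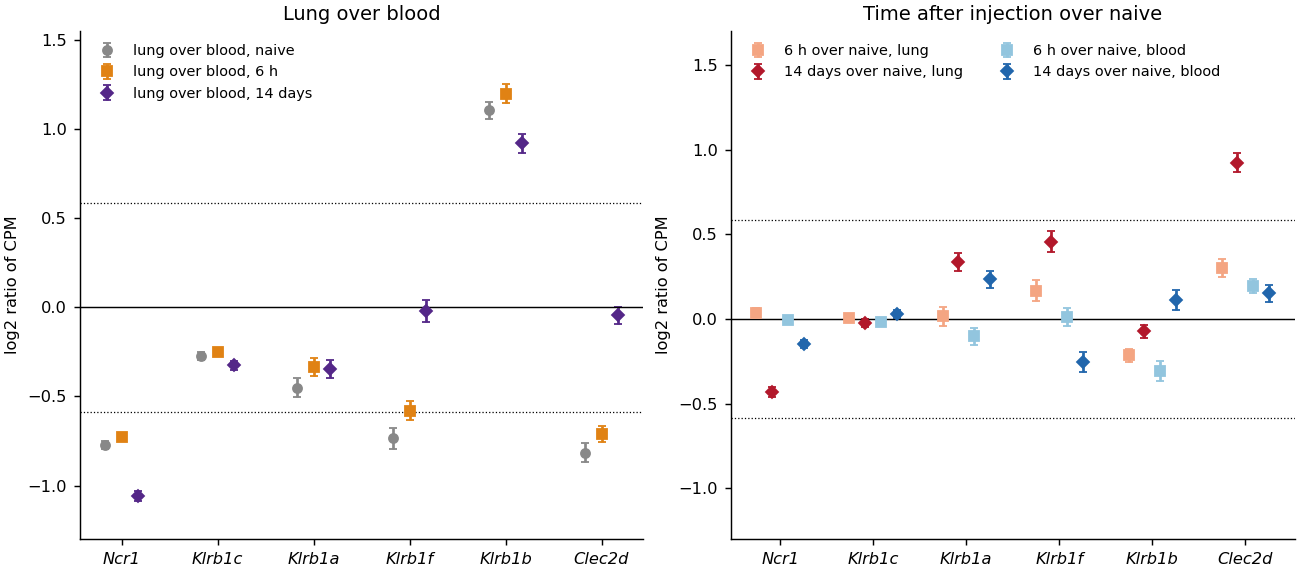
Log2 ratio of CPM for each member, lung over blood in each library (left) and 6 h or 14 days over naive in each tissue (right), with exact intervals (95%) for counting error. Dotted lines mark 1.5-fold. Klrb1b alone is above the upper line on the left, and Clec2d in 14-day lung, at 0.92, is the only point past a line on the right.

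At 14 days Clec2d was the only member past the fold in lung, where it was higher than in naive mice. Its log2 ratio over naive lung was 0.92 (95% CI 0.87 to 0.98), a 1.90-fold level and higher than in 98.0% of genes, whereas 4.64% of all genes were higher and 10.9% lower by 1.5-fold. Klrb1f had a log2 ratio of 0.46 (95% CI 0.40 to 0.52), Klrb1a 0.34 (95% CI 0.28 to 0.39) and Ncr1 -0.43 (95% CI -0.46 to -0.40). Klrb1b at -0.07 and Klrb1c at -0.02 had moved little. The median gene stood at -0.19 in this comparison, and relative to it Klrb1f reached 0.64, past the fold, Clec2d 1.11, Klrb1a 0.53 and Ncr1 -0.24, while Klrb1b and Klrb1c changed sign, to 0.11 and 0.16.

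In blood at 14 days none of the 6 was past the fold, where 0.949% of genes were higher and 3.01% lower. The log2 ratios over naive blood were -0.15 for Ncr1, 0.23 for Klrb1a, 0.11 for Klrb1b, 0.03 for Klrb1c, -0.26 for Klrb1f and 0.15 for Clec2d. The median gene stood at -0.15, so that Ncr1 relative to it was at 0.0070. The difference between the changes of lung and blood was past 1.5-fold for Clec2d, 0.77 (95% CI 0.70 to 0.84), and Klrb1f, 0.71 (95% CI 0.63 to 0.80), where 3.11% of genes had a difference that large upward and 3.21% downward. These values share the naive and the 14-day library and have no replicate.

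At 6 h after injection no member was past the fold in either tissue. In lung 0.487% of genes were higher and 0.0874% lower, and in blood 0.283% and 0.234%. Clec2d had the largest positive log2 ratio among the members, 0.30 (95% CI 0.25 to 0.36) for lung and, for blood, 0.19 (95% CI 0.15 to 0.24). Klrb1b had the most negative one, -0.21 (95% CI -0.25 to -0.18) and -0.31 (95% CI -0.37 to -0.25). Between lung and blood these changes differed by at most 0.15, for Klrb1f, where 0.0512% of genes differed by 1.5-fold upward and 0.064% downward.

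The sort on NK1.1 and NKp46 bears on the shares of cells with a Klrb1c or Ncr1 UMI. At least 1 UMI of Klrb1c was found in 98.2% to 99.8% of cells and of Ncr1 in 98.0% to 99.7% of cells in 5 groups. In 14-day lung 6.60% of cells (236 of 3575) had no Ncr1 UMI, against 0.328% to 2.01% elsewhere. With each cell thinned to 3000 UMIs these shares were 21.7% against 2.02% to 9.69%. Klrb1c was without a UMI in 8.91% of the same thinned cells, near its 7.58% in naive lung.

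Klrb1b was spread unevenly over cells. In thinned naive lung 48.7% of cells had none, where a Poisson spread of the same mean (1.33 UMIs per cell) would leave 26.5%, and 21.2% of cells had 3 or more. Its variance was 1.77 to 2.49 times its mean over the 6 groups, against 1.18 to 1.29 for Klrb1f and 1.21 to 1.35 for Clec2d. The range was 1.39 to 1.76 for Klrb1a, 1.46 to 1.80 for Klrb1c and 1.44 to 1.85 for Ncr1, of which the last 2 overlapped that of Klrb1b. Thinned shares with a Klrb1b UMI were 51.3%, 48.4% and 52.4% in naive, 6 h and 14-day lung, and 32.9%, 32.1% and 37.8% in blood. Thinned shares with a Clec2d UMI were 38.4% in naive lung and 58.8% in 14-day lung, beside 57.2% and 63.0% in blood.

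**Figure D3:**
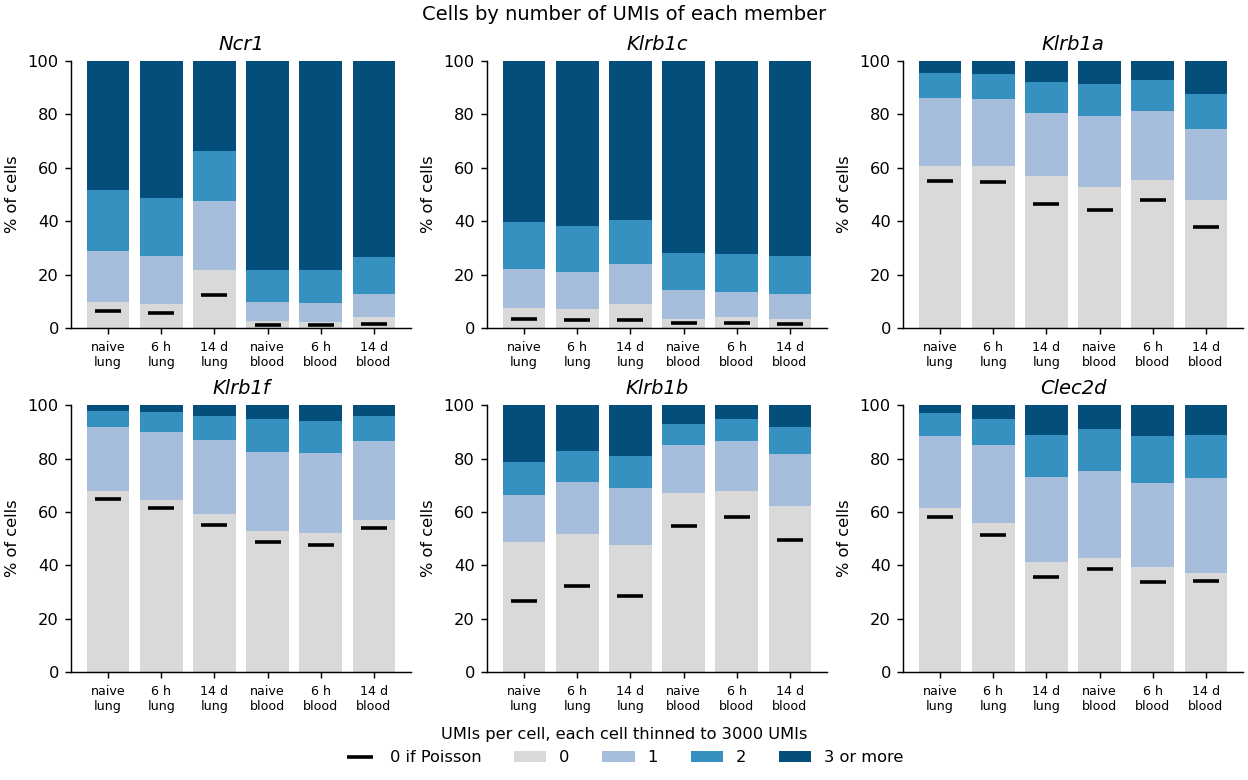
Share of cells with 0, 1, 2 or 3 and more UMIs of each member in the 6 groups, each cell thinned to 3000 UMIs, and as black lines the share of cells at 0 if UMIs followed a Poisson spread of the same mean. The gap between the grey bar and the line is widest for Klrb1b, 48.7% against 26.5% in naive lung, and Ncr1 has its highest share at 0, 21.7%, in 14-day lung.

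The limit estimated for the part of free RNA in a cell's counts was 3.02%, 3.96% and 0.729% in the naive, 6 h and 14-day libraries. At a group's median depth this could give an Ncr1 UMI to up to 30.1% of cells and a Klrb1b UMI to up to 7.06%. For Ncr1 in lung it was up to 21.0% in naive mice, 28.5% at 6 h and 5.01% at 14 days. The shares of lung cells without an Ncr1 UMI therefore stand on unlike backgrounds, whose part in their difference was not tested. Each limit is the lowest among genes of other cell types. It rests on 1 gene with 23, 82 and 42 UMIs in near-empty barcodes, and leaves out the error of that number. In 14 barcodes with 10 or more UMIs of B cell or myeloid genes, at a median of 16648.5 UMIs, an Ncr1 UMI was found in 5, a Klrb1b UMI in 4 and a Clec2d UMI in 12. Clec2d is also known to be made by such cells. For each pair of members, thinned cells held both UMIs 0.927 to 1.06 times as often as the product of the single shares, a ratio that must lie near 1 for Ncr1 and Klrb1c, which most cells show. Spearman's rho over cells was 0.063 to 0.196 for Ncr1 with Klrb1c and 0.041 to 0.112 for Klrb1a with Klrb1c, weak values that are given as a description.

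Cells were next divided by UMIs of genes that are no members. CD27 (Cd27) marks less mature and CD11b (Itgam) more mature NK cells, and Klrg1 with Cx3cr1 the most mature. These sets share cells and favour deeply read cells, so the directions named in this paragraph were also read after thinning. Ncr1 was higher in Itgam-only than in Cd27-only cells in 6 of 6 groups, by a log2 ratio of 0.16 to 0.92, and so was Klrb1c, by 0.30 to 0.92. Klrb1f ran the other way in 6 of 6 groups, from -0.13 to -0.66, and between Klrg1 with Cx3cr1 and Cd27-only cells from -0.33 to -0.82. After thinning, with the sets gated anew on the thinned counts, these log2 ratios kept their sign in all 6 groups. For Itgam-only over Cd27-only cells, however, the thinned interval of Klrb1f included 0 in 6 h lung, 6 h blood and 14-day lung. That of Ncr1 included 0 in 14-day blood, at 0.09 (95% CI -0.04 to 0.22). Klrb1b was higher in the Klrg1 with Cx3cr1 cells in 5 of 6 groups, also after thinning, reaching 548 CPM in naive lung against 315 CPM in Cd27-only cells. The exception was 14-day blood, at -0.27, where 169 Cd27-only cells had 285 CPM, and thinned it was 0.026 (95% CI -0.29 to 0.35).

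**Figure D4:**
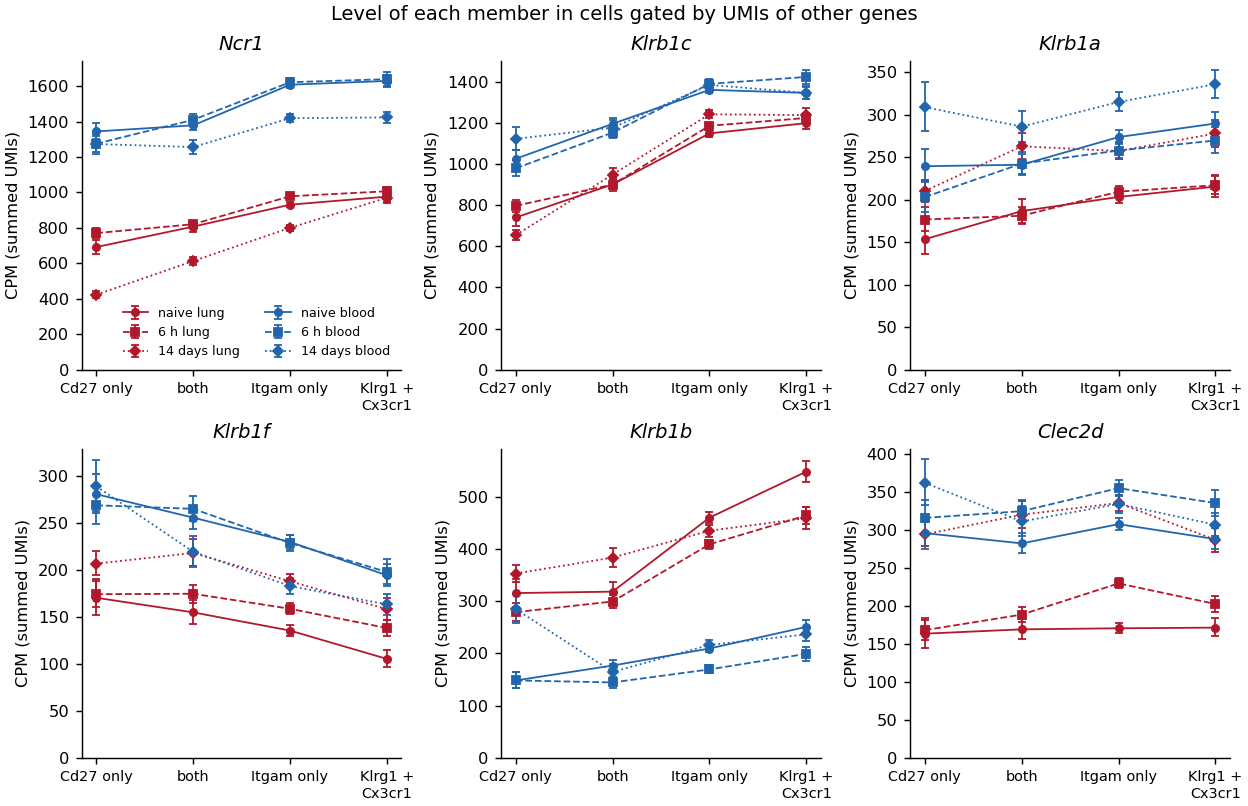
CPM of each member in cells with a UMI of Cd27 and none of Itgam, of both, of Itgam and none of Cd27, and of Klrg1 with Cx3cr1, in lung (red) and blood (blue) of the 3 libraries, with exact Poisson intervals (95%). Ncr1 and Klrb1c stand higher and Klrb1f lower in the third and the last set than in the first, and 14-day lung cells have 423 CPM of Ncr1 on the left and 970 CPM on the right.

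Ratios were next read in 9 sets of cells. They were the sets by Cd27 and Itgam (either alone, both or neither), Klrg1 with Cx3cr1 cells, and cells with Ccl4, Ccl3 and Nr4a1. The rest lay outside a set described below, separately for the Ccl4, Ccl3 and Nr4a1, the Itga1 with Pmepa1 and the interferon set. The sets overlap, and cells outside the Itga1 with Pmepa1 set were 3652 of 3676 naive lung cells. Over these sets, the log2 ratio of lung over blood in naive mice ran from 0.80 to 1.14 for Klrb1b. It ran from -0.96 to -0.73 for Ncr1 and from -1.14 to -0.74 for Clec2d. At 14 days it ran from 0.31 to 1.22 for Klrb1b, with Cd27-only cells lowest and short of 1.5-fold, from -1.59 to -0.55 for Ncr1, with the Klrg1 with Cx3cr1 cells short of it, and from -0.53 to 0.04 for Clec2d. The difference of Ncr1 between 14-day and naive lung was unequal among them, while the median gene over all lung cells stood at -0.19. The log2 ratio of Ncr1 over naive lung was -0.71 (95% CI -0.81 to -0.61) in Cd27-only cells, -0.22 (95% CI -0.26 to -0.18) in Itgam-only cells and -0.01 (95% CI -0.07 to 0.05) in cells with Klrg1 and Cx3cr1. The ratios of this paragraph are without thinning, and the libraries differ in depth. For Ncr1 in Itgam-only over Cd27-only cells, thinning took the log2 ratio from 0.92 to 0.74 in 14-day lung and from 0.43 to 0.35 in naive lung. Clec2d in contrast exceeded its naive lung level at 14 days in all 9 sets, by 0.72 to 1.00, and Klrb1f by 0.28 to 0.59. As the sets share cells, these are not 9 independent readings.

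Cells with UMIs of Itga1 (the adhesion receptor CD49a) and Pmepa1 (a gene induced by TGF-beta) made up 16.9% of 14-day lung, 605 cells, and 0.653% of naive lung. They held 408 CPM of Ncr1 against 727 CPM in the other 14-day lung cells, a log2 ratio of -0.83 (95% CI -0.90 to -0.77), and -0.33 for Klrb1c. Klrb1b was at 0.14, Klrb1f at 0.12, Klrb1a at -0.10 and Clec2d at -0.08 in the same comparison. After thinning Ncr1 was at -0.89, Klrb1c at -0.13 and Clec2d at 0.09. With these cells left out, Ncr1 in 14-day over naive lung was at -0.31 (95% CI -0.34 to -0.28). The median gene stood at -0.19 over all lung cells, and the part of these cells in the difference was not tested. In 180 cells of 14-day lung with 3 or more of 5 interferon-induced genes, Clec2d was higher by a log2 ratio of 0.51 (95% CI 0.41 to 0.62), and Klrb1c lower, at -0.58, and Ncr1, at -0.38. Gated anew after thinning, these were 0.75 for Clec2d, -0.79 for Klrb1c and -0.58 for Ncr1. Clec2d was also higher in cells with Ccl4, Ccl3 and Nr4a1, genes of recent activation, by 0.26 to 0.64 in 5 groups, and in 14-day lung the log2 ratio was 0.07 (95% CI -0.01 to 0.14). After thinning it was 0.32 to 0.93 in 6 of 6 groups. The few cells with Cxcr6 and Tmem176b, 7 to 35 per group, held 1038 to 1289 CPM of Klrb1b in lung and 479 to 746 CPM in blood. They fell short of the 50 cells needed for a ratio, so none was taken. After thinning, 3 such cells of naive lung had 1556 CPM (95% CI 850 to 2610) and 2 of naive blood 0 CPM (95% CI 0 to 615).

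Among 9 listed neighbours of the NKR-P1 and CLEC2 families, 3 reached 10 CPM. In 14-day lung all 3 were higher than in naive lung by 1.5-fold, namely Klrb1 at a log2 ratio of 0.71, Clec2i (the gene of Clr-g) at 1.22 and Cd69 (an early activation marker) at 1.05, and in blood none was, beside 4.64% of all genes in lung and 0.949% in blood. Clec2i went from 24.5 to 57.4 CPM in lung and from 44.6 to 32.8 CPM in blood. Clec2g, another CLEC2 gene, was at 1.17 to 4.94 CPM. Klrb1g, Klrb1d and Klrb1-ps1 were not analysed here.

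**Figure D5:**
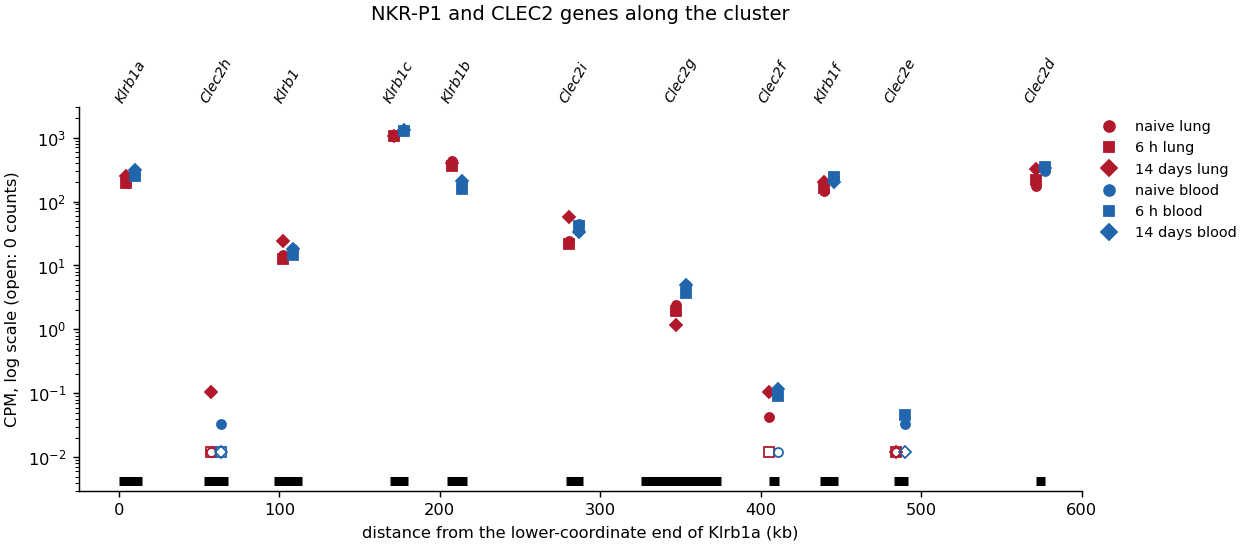
CPM (log axis) of the NKR-P1 and CLEC2 genes in the 6 groups against their distance from the lower-coordinate end of Klrb1a, with gene bodies as black bars and open symbols for 0 counts. Clec2e, Clec2f and Clec2h stay near 0 in every group, among neighbours that are read in all 6.

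Of 8 signalling partners, none was past 1.5-fold between lung and blood on CPM, though some came close at 14 days. Cd247 (CD3 zeta), at -0.68, and Syk, at -0.86, were lower in 14-day than in naive lung, 2 of 8 beside 10.9% of all genes, while Fcer1g, the other adaptor of NKp46, was at 0.09. Ptpn6, the phosphatase SHP-1 that inhibitory receptors recruit, was at 0.56, just short of the fold. Relative to the median gene Syk stayed past the fold at -0.67, Cd247 did not at -0.49, and Ptpn6 passed it at 0.75. For lung over blood at 14 days, Cd247 was at -0.58, Syk at -0.57, Inpp5d at 0.54 and Ptpn6 at 0.53. Relative to the median gene Inpp5d (0.65) and Ptpn6 (0.64) passed the fold there, while Cd247 (-0.48) and Syk (-0.46) did not. Of 7 transcription factors of NK cells, Nfil3 was higher in lung in all 3 libraries, at 1.46, 1.27 and 0.86, and Nfil3 (-0.63) and Ets1 (-0.66) were lower in 14-day than in naive lung, 2 of 7, but short of the fold relative to the median gene (-0.44 and -0.47). Runx3 was at 0.26 and Tbx21 at -0.53 there. Between lung and blood, Runx3 at 14 days (0.58) and Ets1 at 6 h (0.50) fell short of the fold. Relative to the median gene both passed it, at 0.68 and 0.60.

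Over the 6 groups, the genes whose log2 CPM ran most like each member among 4200 genes were Hnrnpk, Was and Plcg2 for Ncr1 (Pearson r = 0.995 to 0.996), Apobr, Tmco1 and Actr10 for Klrb1c (0.986 to 0.990) and Commd4, Cmc1 and Smim4 for Klrb1a (0.981 to 0.989). For Klrb1f they were Cmtm7, Rilpl2 and Dtx3l (0.988 to 0.992), for Klrb1b Fam184a, Zfp36l2 and H1f2 (0.991 to 0.992) and for Clec2d Apobec3, Gimap9 and Mitd1 (0.985 to 0.993). The 6 points share 3 libraries, so these values only describe likeness. Among the members, Klrb1b ran against the other 5, with r between -0.95 and -0.67.

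Transcripts of 3 members share some sequence with other annotated genes, and what this does to their counts was not tested. The model Gm44511, not among the genes counted, spans Klrb1c and Klrb1b on the same strand. In the last 500 bases, 14.0% of 90-base words of Klrb1b transcripts and 11.4% of those of Klrb1c occur in other genes. The share was 1.35% for Klrb1a and 0 for Ncr1, Klrb1f and Clec2d. Words of Klrb1b were shared with Gm44511 alone, those of Klrb1c with Gm44511 and Klrb1a, and those of Klrb1a with Klrb1c. Levels were compared only between groups, for 1 gene at a time.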

How the data were processed

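Single-cell RNA sequencing was available for 3 libraries. The deposited matrices hold whole UMI counts for genes and hashtags, empty barcodes included and not normalized, which the authors made with Cell Ranger (7.0.1 per the labels and 7.1.0 per the file headers). The labels name GRCm38.p6; whether intron reads were counted is not given in the sources used here. Barcodes with 800 to 5000 genes and at most 6% mt- counts were kept, and a tissue was assigned where 1 hashtag held at least 90% of tag counts (342, 158 and 141 barcodes left out in turn). Doublets within a tissue were not called. UMIs were summed per library and tissue and scaled to CPM. Ratios have exact conditional intervals, levels exact Poisson and shares exact binomial intervals (95%). With 1 library per condition no test between times was made. Ratios of 1.5-fold or more were counted and read beside all genes with at least 10 CPM. Ratios and the edgeR fit were tested on simulated data, and thinning (3000 UMIs) was checked on a subset of the naive lung cells. The simulated counts had Poisson error (ratios) or a fixed spread (edgeR) and no effect of time. The spread between conditions was therefore not covered. Members and lists were chosen with earlier results of these data known. Named genes were the members, the listed pathway genes and 3 genes per member with the highest Pearson correlation (among genes with 50 CPM or more in 1 group). Python 3.11.15, numpy 2.4.6, scipy 1.17.1, pandas 2.3.3, Biopython 1.88, matplotlib 3.10.9, R 4.3.3 and edgeR 4.0.16 were used.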

Additional observations from a re-analysis of the deposited data

Results flagged for a closer look

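Between naive mice and 14 days after injection, Klrb1f, Klrb1b and Klrb1c moved in opposite directions in lung and blood, with both counting intervals apart from 0. The difference of the log2 ratios, lung minus blood, was 0.71 for Klrb1f (0.46 in lung and -0.26 in blood), -0.19 for Klrb1b (-0.07 and 0.11) and -0.055 for Klrb1c (-0.02 and 0.03). Relative to the median gene of each comparison, the sign remained opposite for Klrb1f (0.64 and -0.10), while Klrb1b (0.11 and 0.27) and Klrb1c (0.16 and 0.18) were positive in both tissues. With 1 library per time the difference was not tested against replicates.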

How the results depend on the processing

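The number of members past 1.5-fold was recomputed under 14 alternatives in each of 7 comparisons, of which 10 were planned and 4 chosen after seeing the data. The number stayed within 1.5 times in 6 of 7 comparisons under all 14. Among these 6 it was 0 in 14-day over naive blood and in 6 h over naive lung and blood. In 14-day over naive lung it went from 1 to 2, as Klrb1f passed the fold too, with mt- and ribosomal protein genes left out of totals, with median of ratios size factors and when set against the median gene. Of 42 member log2 ratios, 41 left their counting interval when set against the median gene and 35 with median of ratios size factors. With mt- and ribosomal protein genes left out of totals 22 did. At 99% of tag counts and at least 50 tag counts 14 did, and naive lung fell from 3676 to 1917 cells. With at most 3% mt- counts 14 did as well. None did with tissues split by a threshold on each tag's counts. With cells thinned to 3000 UMIs, and the ratios between sets of cells counted in, 81 left their interval, 1 reversed and 86 stayed. At 6 h the lung over blood ratio of Klrb1f passed the fold under 4 alternatives. Klrb1b was past it in lung over blood in all 14 for each library, from 0.84 to 1.33, and so was Ncr1, from -1.14 to -0.63. In the edgeR test, leaving out 1 library moved the number of members called between 1 and 6, from 3. The 6 came from the fit without the 14-day library, which was not read as repetition. In 6 h lung, 60 cells had Itga1 and Pmepa1, and their log2 ratio of Klrb1a over the other cells was -0.73. Gated anew on the thinned counts, the set held 16 cells, with a log2 ratio of 0.051. Its counting interval, -1.01 to 0.93, includes -0.73, while that of the 60 cells, -1.11 to -0.37, leaves out 0.051. Thinning changed the depth and the cells of the set together, so their parts in the change of sign cannot be told apart. The planned exclusion of cells with 2 or more UMIs of T cell, B cell or myeloid genes left 1239 to 3008 cells per group, and a list without Cst3, Ighm and the T cell genes left 2064 to 4674. Of the 42 member log2 ratios, 16 left their interval under the planned exclusion, and all 42 stayed under the shorter list. Between time points, no paired analysis was possible because each is 1 library. Lung and blood of a library were paired in the edgeR test. Depth limits Klrb1a, Klrb1b, Klrb1f and Clec2d, for which 27.7% or more, 31.8% or more, 25.7% or more and 13.2% or more of cells in every group had no UMI.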
